A study of Mus musculus with 10 samples.

Results

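The clade A serpin gene cluster of mouse chromosome 12 was described through the histone mark peaks that normal liver carries there. Its members were all deposited peaks that overlap a window of 900 kb from base 104850001 of chromosome 12 on the mm9 build, set for Serpina6, the 5 copies Serpina1a to Serpina1e, and Serpina3k with the other Serpina3 copies. Of 344928 peaks in 9 lists, 507 fell in this window. The flanks of equal length held 158 peaks on the left, from base 103950001, and 248 on the right, up to base 106650000. The lists name no genes, and an annotation of mm9 was not used here, so the placing of the genes in the window is that of the rule and no peak was assigned to a gene.

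All samples were normal mouse liver taken as full sections. Strain, sex and age are not given in the sources used here. A fresh frozen liver, cross-linked with formaldehyde and sonicated, gave 1 H3K27Ac list. Formalin-fixed, paraffin-embedded (FFPE) liver gave 6 H3K27Ac lists by FiTAc-seq, in which the tissue was homogenized by heat in SDS buffer before sonication. The conditions, written here as temperature/sonication time, were 50 °C with 5 or 40 min of sonication, 65 °C with 5 or 40 min, and 80 °C/40 min. FFPE liver also gave 1 H3K27Ac and 1 H3K4me2 list by FiT-seq, in which proteinase K and sonication broke up the tissue. Only 65 °C/5 min had 2 libraries. These may come from the same animal or block, since nothing says otherwise, and their spread may then be technical. Every other condition stands on 1 library. The series set out to compare homogenization temperatures and sonication times for FFPE liver against the fresh frozen tissue.

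Serpins are protease inhibitors that trap their target by a change of shape, and clade A holds many that hepatocytes secrete into plasma. The Serpina1 copies encode forms of alpha-1-antitrypsin, which in humans is the main plasma inhibitor of neutrophil elastase. Serpina6 encodes corticosteroid-binding globulin, a carrier of glucocorticoids that has lost inhibitor function. Serpina3k belongs to the mouse copies related to human alpha-1-antichymotrypsin. H3K27Ac, acetylation of lysine 27 of histone H3, marks active promoters and enhancers. H3K4me2, dimethylation of lysine 4, marks promoters and enhancers more broadly.

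RefSeq's gene order on GRCm38.p6, used here for names only, holds 28 clade A serpin genes of chromosome 12, 23 protein coding and 5 pseudogenes. Other genes were left out of this order. Serpina6 stands near the start of this order, the Serpina1 copies follow as Serpina1b, Serpina1d, Serpina1a, Serpina1c and Serpina1e, and 14 Serpina3 genes close it. RefSeq promoter sequences matched 5 of the 7 named members. The 250 bases before the annotated start are shown for these 5, on the minus strand, because they show how alike the Serpina1 copies are. On GRCm38.p6 they lie at chr12:103863620-103863869 for Serpina1a, chr12:103738190-103738439 for Serpina1b, chr12:103904951-103905200 for Serpina1c, chr12:103773634-103773883 for Serpina1d and chr12:103956898-103957147 for Serpina1e. These positions belong to another build than the peaks and were not moved onto mm9. Capitals mark GTTAAT, letters of the recognition sequence of the liver factor HNF1, and TGGACTT, letters of the HNF4 site known from alpha-1-antitrypsin promoters.
Serpina1a: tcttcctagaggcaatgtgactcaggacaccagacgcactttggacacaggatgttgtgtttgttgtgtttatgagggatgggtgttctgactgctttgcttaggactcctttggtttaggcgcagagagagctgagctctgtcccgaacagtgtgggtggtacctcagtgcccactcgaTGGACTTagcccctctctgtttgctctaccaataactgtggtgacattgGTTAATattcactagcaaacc
Serpina1b: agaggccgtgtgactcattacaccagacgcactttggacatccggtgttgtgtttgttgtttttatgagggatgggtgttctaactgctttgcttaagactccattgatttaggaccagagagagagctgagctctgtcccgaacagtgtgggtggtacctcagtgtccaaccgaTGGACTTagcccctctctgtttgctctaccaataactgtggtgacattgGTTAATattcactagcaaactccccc
Serpina1c: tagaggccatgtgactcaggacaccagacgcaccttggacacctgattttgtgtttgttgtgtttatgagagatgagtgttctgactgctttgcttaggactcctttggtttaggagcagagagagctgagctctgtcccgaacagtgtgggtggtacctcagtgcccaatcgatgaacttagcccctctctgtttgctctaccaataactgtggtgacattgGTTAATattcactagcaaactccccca
Serpina1d: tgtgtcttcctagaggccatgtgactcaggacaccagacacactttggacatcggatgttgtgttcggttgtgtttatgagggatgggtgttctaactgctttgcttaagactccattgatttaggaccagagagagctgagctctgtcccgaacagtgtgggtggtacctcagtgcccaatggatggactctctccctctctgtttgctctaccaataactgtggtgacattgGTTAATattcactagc
Serpina1e: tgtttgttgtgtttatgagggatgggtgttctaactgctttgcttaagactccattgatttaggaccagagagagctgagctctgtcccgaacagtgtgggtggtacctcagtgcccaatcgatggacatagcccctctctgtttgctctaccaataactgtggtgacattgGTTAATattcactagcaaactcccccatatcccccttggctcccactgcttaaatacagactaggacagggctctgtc

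The 5 sequences aligned pairwise with 92.1% to 98.0% identical bases over 10 pairs, and their longest identical run was between 55 and 115 bases. Identity was counted over aligned bases only, 188 to 199 in pairs with Serpina1e and 238 to 248 in the other pairs. GTTAAT began 78 bases before the annotated start in Serpina1e and 16 to 27 bases before it in the other copies. Serpina1d and Serpina1e shared the run of 115 bases. Serpina1f, a further gene of the cluster, shared no run longer than 9 bases with any of the 5. Searched on both strands, GTTAAT was in all 5 sequences and in 6.43% of the 32851 promoters of the same length. TGGACTT was in Serpina1a and Serpina1b and in 3.36% of promoters. The 2 motifs do not overlap in these sequences. The copies differ in the stretch of 20 bases around TGGACTT, where capitals mark letters that differ from the most common letter of the 5 copies.
Serpina1a: aCtcgatggacttagcccct
Serpina1b: aaCcgatggacttagcccct
Serpina1c: aatcgatgAacttagcccct
Serpina1d: aatGgatggactCTCTccct
Serpina1e: aatcgatggacAtagcccct

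Serpina1d differed at 5 letters of the stretch and each other copy at 1. Words of 50 bases were looked up in the whole promoter entries of the other copies, which run past the annotated start and so beyond the sequences shown. Of the 201 words in each sequence, 70.1% of those in Serpina1e were also in another copy, 35.8% in Serpina1d, 21.9% in Serpina1b, 17.4% in Serpina1c and 13.4% in Serpina1a. A read inside such a word fits more than 1 copy. How such reads were handled is not given in the sources used here, so peak scores and gaps over the Serpina1 copies are uncertain. Sequence outside these promoters, and that of the Serpina3 genes, was not compared, so the same may hold elsewhere in the window. The part of shared sequence in the results was not tested.

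In fresh frozen liver the window held 87 H3K27Ac peaks, against 31 in the left flank and 27 in the right. These peaks covered 35465 bp, which is 3.94% of the window, beside 1.41% of the left and 1.26% of the right flank. Both values were well above the genome, where tiles of 900 kb had a mean of 16.5 peaks and 0.776% covered. The window came 8th by peaks and 19th by covered bases when set among 2909 such tiles. The long FiTAc-seq lists also had more peaks in the window than in either flank. With 40 min of sonication the window had 108 peaks over 53913 bp (5.99%) at 50 °C, and 104 peaks over 56296 bp (6.26%) at 65 °C. The pair at 65 °C/5 min had 84 peaks over 68245 bp (7.58%) in replicate 1 and 86 peaks over 60446 bp (6.72%) in replicate 2. The pair had means of 85.0 ± 1.41 peaks (SD, n = 2) and 64346 ± 5515 bp (SD, n = 2). The window was emptiest in the 50 °C/5 min list among the 6 long H3K27Ac lists, with 37 peaks over 12800 bp (1.42%). Among the tiles, the window's place by covered bases was 75 at 65 °C/40 min, 92 and 98 in the pair, 108 at 50 °C/40 min and 440 at 50 °C/5 min.

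**Figure D1:**
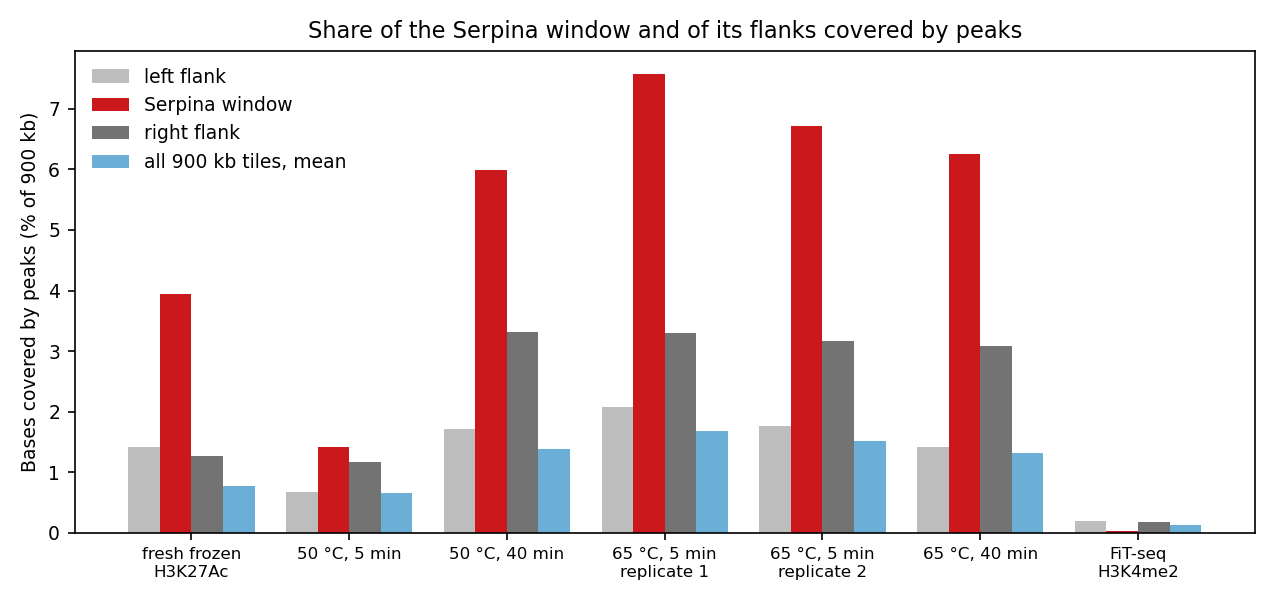
Bars give the share of bases covered by peaks (percent of 900 kb, vertical axis) in each list, for the left flank, the Serpina window, the right flank and the mean of all 900 kb tiles. The window bar is the tallest of its list in the 6 long H3K27Ac lists, from 1.42% at 50 °C/5 min to 7.58% in replicate 1 of 65 °C/5 min, and the lowest in the H3K4me2 list.

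Covered bases in the window were 2.96 times the mean of its flanks in fresh frozen liver and 2.38 times at 50 °C/40 min. The ratio was 2.82 and 2.73 in the pair at 65 °C/5 min and 2.78 at 65 °C/40 min. It was 1.54 at 50 °C/5 min, where the right flank alone had 32 peaks. The window was above both flanks in each of the 6 long H3K27Ac lists, and this difference was not tested. The number of peaks depended on how they were delimited. After merging of peaks no more than 500 bp apart, the window had 51 peaks in fresh frozen liver, 47 in the 50 °C/40 min list, 40 in the 65 °C/40 min list, a mean of 38 in the pair and 25 in the 50 °C/5 min list. Both lists of 40 min were thus above fresh frozen liver in peaks before merging and below it after. Covered bases kept their order, with 45442 bp in fresh frozen liver after merging, 65790 bp in the 50 °C/40 min list, 68109 bp in the 65 °C/40 min list and a mean of 74052 bp in the pair.

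**Figure D2:**
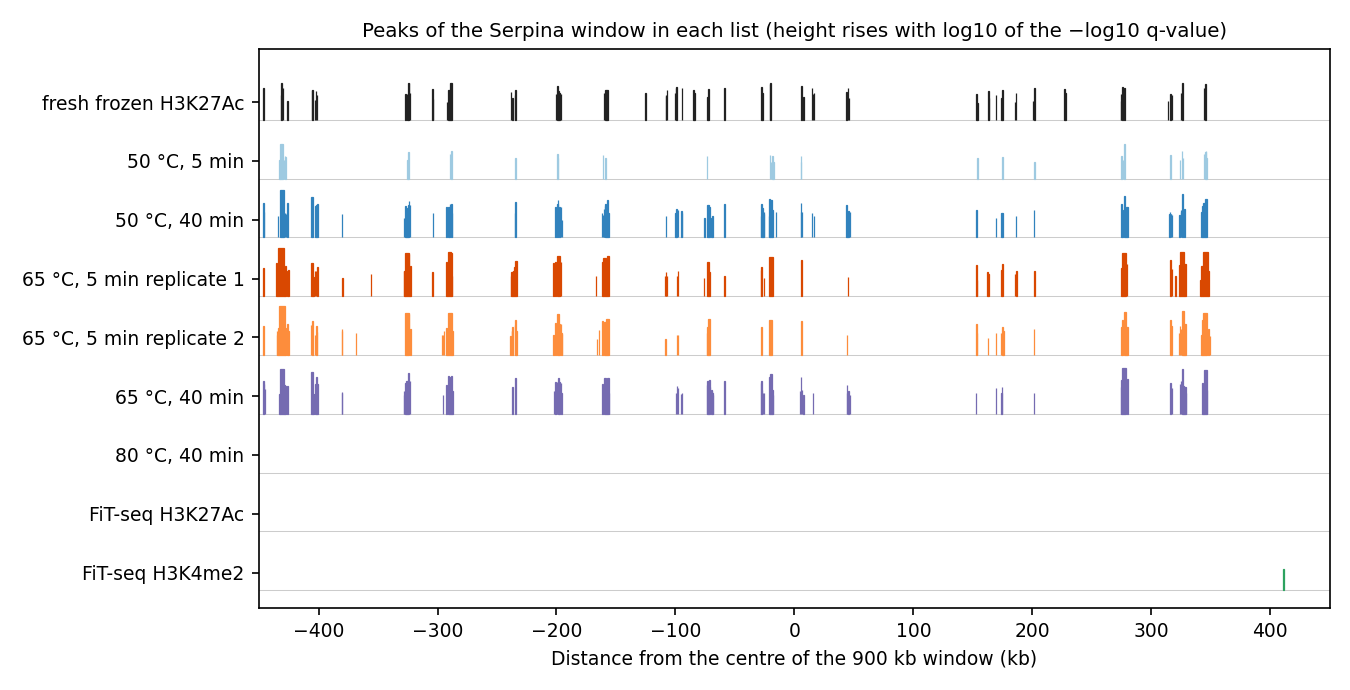
Each row is a list and each bar a peak, drawn over its extent by distance from the centre of the 900 kb window (kb, horizontal axis), with a height that rises with log10 of the peak's −log10 q-value. The 6 long H3K27Ac lists show bars at many of the same places, the 50 °C/5 min row has the fewest of these, and the H3K4me2 row has 1 bar near the right edge.

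Peaks crossed neither edge of the window in these 6 lists. The last fresh frozen peak before the window ended at 104790287 and the first inside it began at 104853566. The last fresh frozen peak inside ended at 105645776 and the next began at 105989495, so the right part of the window and the start of the flank carried none. Replicate 2 of 65 °C/5 min had a peak that ended at 104848150, closest to the left edge from outside.

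Each peak carries a deposited value, taken here for the −log10 of a q-value. It is the authors' own score and is used to rank peaks within a list. By this score the fresh frozen peaks of the window lay near the middle of their list. Their median was 9.90, beside 9.79 over all 48239 fresh frozen peaks, and their highest was 31.6, while the highest of the genome was 310. None of the 87 was among the 5000 highest peaks, a length that takes 10.4% of the fresh frozen list. The left flank had 3 such peaks, up to 75.1, and the right flank 1, at 45.1. The best rank in the window was 5883, and 9 of the 87 were among the 10000 highest (10.3%, whole list 20.7%).

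In the long FiTAc-seq lists the highest peaks of the window stood further up. The best rank was 33 of 56632 in replicate 2 of 65 °C/5 min, with a score of 116, and 185 of 60244 in replicate 1, with 109. It was 128 of 65332 at 50 °C/40 min (103), 535 of 38409 at 50 °C/5 min (22.4) and 575 of 64146 at 65 °C/40 min (83.6). Among the 5000 highest were 11 of 84 window peaks in replicate 1 and 9 of 86 in replicate 2, which is 13.1% and 10.5%, where the whole lists give 8.30% and 8.83%. With 40 min of sonication it was 7 of 104 at 65 °C (6.73%, whole list 7.79%) and 4 of 108 at 50 °C (3.70%, whole list 7.65%). At 50 °C/5 min it was 2 of 37 (5.41%, whole list 13.0%). Outside the 65 °C/5 min pair these shares lie below those of the whole lists, at 65 °C/40 min by little. In the pair both lie above, in replicate 2 by little. These differences were not tested. The 5000 highest peaks covered 29387 and 20818 bp of the window in that pair, 15179 bp at 65 °C/40 min, 8415 bp at 50 °C/40 min, 2615 bp at 50 °C/5 min, and none in fresh frozen liver. With the 2000 highest, an alternative chosen after seeing the data, the window held 6 and 7 peaks of the pair (7.14% and 8.14%, whole lists 3.32% and 3.53%) and none of fresh frozen liver (whole list 4.15%). It then held 4 peaks at 65 °C/40 min (3.85%, whole list 3.12%), 2 at 50 °C/40 min (1.85%, whole list 3.06%) and 2 at 50 °C/5 min (5.41%, whole list 5.21%).

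**Figure D3:**
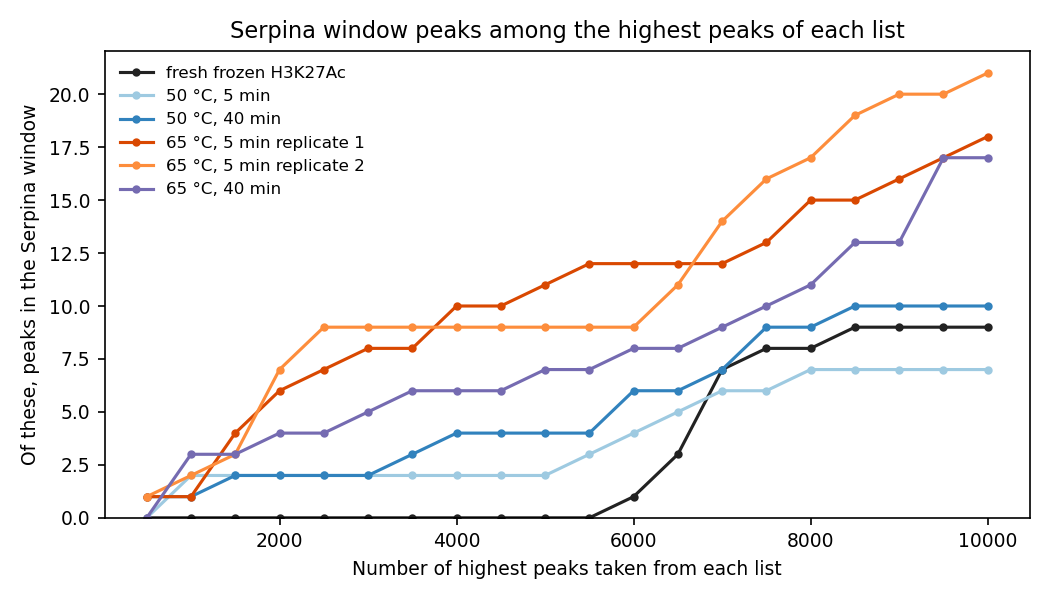
Lines give the number of Serpina window peaks (vertical axis) among the highest peaks of each long H3K27Ac list, as the number taken grows from 500 to 10000 (horizontal axis). The fresh frozen line stays at 0 up to 5500 and reaches 9 at 10000, while the pair at 65 °C/5 min ends at 18 and 21.

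The fresh frozen peaks of the window were mostly found again in 4 of the 5 long FiTAc-seq lists. An overlap of at least 1 bp was counted, and the Wilson 95% intervals cover counting error only. Of the 87 fresh frozen peaks, 66 were met at 50 °C/40 min (75.9%, interval 65.9% to 83.6%), where 73.2% of all fresh frozen peaks were. At 65 °C/5 min, 67 were met in replicate 1 (77.0%, all peaks 73.0%) and 58 in replicate 2 (66.7%, all peaks 70.2%). At 65 °C/40 min, 64 were met (73.6%, all peaks 72.0%). These 4 shares were near those of the whole genome. At 50 °C/5 min, 24 were met (27.6%, interval 19.3% to 37.8%), below the 43.7% of all fresh frozen peaks and the 48.4% and 48.1% of the left and right flank. With the midpoint of the fresh frozen peak required inside the other peak, the share there was 14.9%, beside 34.7% over all fresh frozen peaks.

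By fresh frozen score, the lower share at 50 °C/5 min was clearest in the middle ranks. Of the 9 window peaks among the 10000 highest fresh frozen peaks, 7 were met there (77.8%, interval 45.3% to 93.7%, all such peaks 83.7%), and 9 of 9 were met in each of the other 4 long FiTAc-seq lists. Of the 30 window peaks in the next 10000 ranks, 10 were met (33.3%, interval 19.2% to 51.2%, all such peaks 53.0%). Of the 26 after these, up to rank 30000, 4 were met (15.4%, interval 6.15% to 33.5%, all such peaks 34.4%), and of the 22 at lower ranks, 3 (13.6%, interval 4.75% to 33.3%, all such peaks 21.8%). In the first and last of these classes the interval holds the share of all such peaks. Accordingly 23 of 87 window peaks were met in all 5 long FiTAc-seq lists (26.4%, all fresh frozen peaks 41.1%), and 30 in 4 of the 5 (34.5%, all fresh frozen peaks 20.8%). Another 11 were met in none (12.6%, all fresh frozen peaks 16.6%). Peaks met in all 5 had a median score of 17.8 and a median width of 604 bp, and those met in none 9.41 and 288 bp.

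In the other direction, 66 of 108 window peaks at 50 °C/40 min met a fresh frozen peak (61.1%, whole list 49.4%), and 57 of 104 at 65 °C/40 min did (54.8%, whole list 49.6%). The pair at 65 °C/5 min had 48 of 84 (57.1%, whole list 44.3%) and 44 of 86 (51.2%, whole list 46.4%), and 50 °C/5 min had 26 of 37 (70.3%, whole list 55.7%). The right flank was lower in each of these lists, at 31.0% to 37.5%, and the left flank higher, at 59.3% to 92.3%. Within the pair, 61 of 84 window peaks of replicate 1 met replicate 2 (72.6%, whole list 67.5%) and 72 of 86 of replicate 2 met replicate 1 (83.7%, whole list 77.1%). They shared 52547 bp of the window, 77.0% of what replicate 1 and 86.9% of what replicate 2 covered.

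Peaks of the window came in clusters with wide gaps. When the peaks of fresh frozen liver and the 5 long FiTAc-seq lists were joined at gaps of up to 5000 bp, 31 peak groups resulted, numbered here from left to right. Fresh frozen peaks lay in 28 of them, and 15 had a peak in fresh frozen liver and in all 5 long FiTAc-seq lists. At 50 °C/5 min 15 groups had a peak, at 50 °C/40 min 25, in the pair 26 and 23, and at 65 °C/40 min 22. The 6 most covered groups of a list held 36.9% of its covered bases in fresh frozen liver and between 52.6% and 69.9% in the FiTAc-seq lists, so the fresh frozen peaks were spread more evenly over the groups. Covered bases per group in fresh frozen liver and in a FiTAc-seq list had Spearman's rho of 0.71 to 0.83 over the 31 groups, and the 2 replicates 0.93. Groups were built from these same lists and are not independent points.

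**Figure D4:**
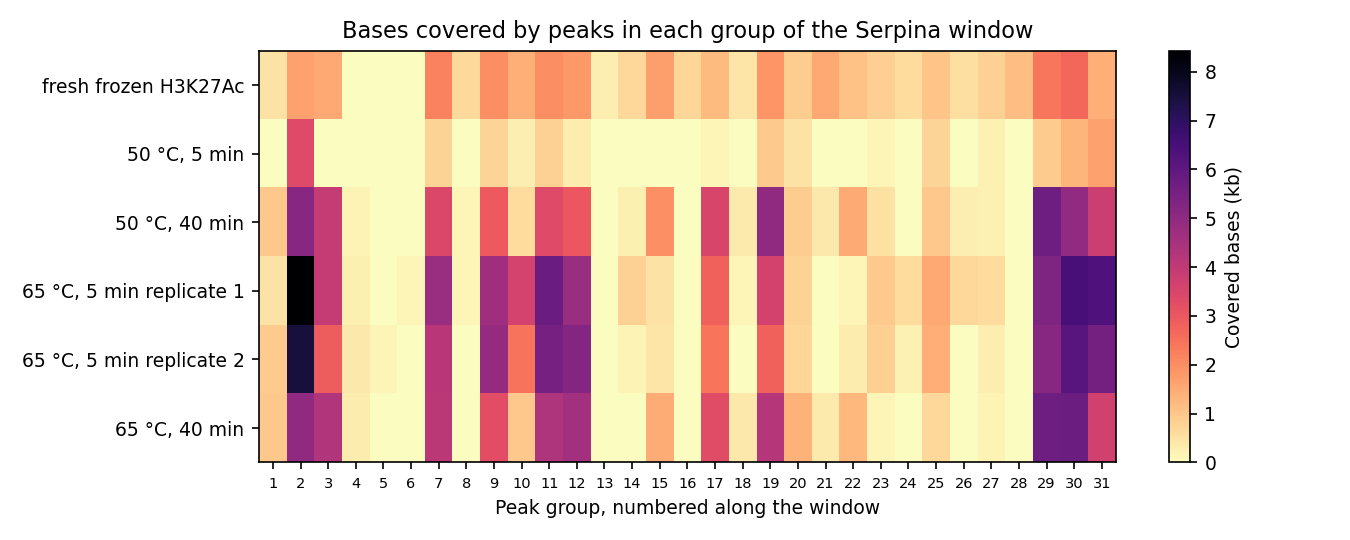
Columns are the 31 peak groups numbered along the window, rows the 6 long H3K27Ac lists, and the colour gives the bases covered by peaks (kb). The fresh frozen row reaches at most 2688 bp per group, while group 2 reaches 8431 bp in replicate 1 of 65 °C/5 min and groups 29 to 31 are dark in 4 of the 5 FiTAc-seq rows.

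Group 2, at chr12:104864461-104874825, held the highest and widest window peaks of 4 FiTAc-seq lists, with a tie in score with a peak of group 29 at 50 °C/5 min. Its bases covered were 1677 bp in fresh frozen liver, 3359 bp at 50 °C/5 min, 5169 bp at 50 °C/40 min, 8431 and 7500 bp in the pair, and 4996 bp at 65 °C/40 min. All 5 FiTAc-seq values lay above the fresh frozen one. Its highest score was 29.5 in fresh frozen liver, 22.4 at 50 °C/5 min, 103 at 50 °C/40 min, 109 and 116 in the pair and 76.3 at 65 °C/40 min. Read depth is unknown, so scores of different lists are not on a known common scale. Within its own list the best peak of the group was in the top 13.8% in fresh frozen liver and 1.39% at 50 °C/5 min. It was in the top 0.196% at 50 °C/40 min, 0.307% and 0.0583% in the pair and 1.32% at 65 °C/40 min. The widest peaks of the window were chr12:104867677-104869755 (2079 bp) at 50 °C/5 min, chr12:104867493-104870893 (3401 bp) at 50 °C/40 min, chr12:104865704-104870901 (5198 bp) in replicate 1 and chr12:104867130-104871742 (4613 bp) in replicate 2, all in this group. Fresh frozen liver had 4 shorter peaks in the group, among them chr12:104868772-104869603 (832 bp, rank 6652).

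Groups 29, 30 and 31 form the right end of the H3K27Ac peaks. Group 29, at chr12:105574110-105580773, covered 2383 bp in fresh frozen liver, 891 bp at 50 °C/5 min, 5670 bp at 50 °C/40 min, 5353 and 5157 bp in the pair, and 5686 bp at 65 °C/40 min. At 65 °C/40 min it held the highest and widest peak of the window, chr12:105575566-105579115 (3550 bp, score 83.6, rank 575), where the best fresh frozen peak had 18.4 and rank 12674. Group 30, at chr12:105613948-105629243, held the highest fresh frozen peak of the window, chr12:105625478-105626706 (1229 bp), which is also the widest of that list there. This peak had a score of 31.6 in fresh frozen liver, and the peaks that met it had 10.3 at 50 °C/5 min, 64.2 at 50 °C/40 min, 68.8 and 65.0 in the pair and 76.5 at 65 °C/40 min. Within their own lists these were in the top 12.2%, 16.2%, 2.16%, 2.40%, 1.44% and 1.31%, in the same order. The fresh frozen peak was met in all 5 lists. Group 31, at chr12:105641295-105649386, covered 1386 bp in fresh frozen liver, 1668 bp at 50 °C/5 min, 3756 bp at 50 °C/40 min, 6348 and 5551 bp in the pair and 3674 bp at 65 °C/40 min.

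Most of the other high fresh frozen peaks lay in the left and middle part. Group 7 held chr12:104975069-104975726 (score 31.3) and chr12:104975944-104976258 (30.2), and group 9 held chr12:105011345-105011788 (29.5) and chr12:105010452-105011142 (28.8). Group 19 held chr12:105279862-105280380 (29.2) and chr12:105279365-105279667 (27.8). The list of the 10 highest ends with chr12:105644972-105645776 (25.3) in group 31 and chr12:105100453-105101145 (21.9) in group 11. Of these 10 peaks, 8 were met in all 5 long FiTAc-seq lists, and the other 2, in groups 7 and 19, were missed only at 50 °C/5 min. Similar fresh frozen scores could go with different FFPE scores, as for 2 peaks picked after their values were seen. The peaks that met chr12:104975069-104975726 had 63.5 and 52.8 in the pair, 18.8 at 50 °C/40 min and 48.2 at 65 °C/40 min. Those that met chr12:105279862-105280380 had 39.9 and 25.2 in the pair, 32.6 at 50 °C/40 min and 40.2 at 65 °C/40 min. The first was thus higher in the pair and lower at 50 °C/40 min, and the 2 were closer at 65 °C/40 min.

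Some groups differed between the lists of 5 and of 40 min at 65 °C. Group 10 covered 3571 and 2469 bp in the pair and 976 bp at 65 °C/40 min, with 617 bp at 50 °C/40 min and 1413 bp in fresh frozen liver. In group 15 the order was the other way, with 473 and 442 bp in the pair, 1468 bp at 65 °C/40 min, 1963 bp at 50 °C/40 min and 1689 bp in fresh frozen liver. Group 22 had 146 and 317 bp in the pair against 1259 and 1493 bp in the lists of 40 min. Groups 10, 15 and 22 were singled out after their values were seen.

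The 11 fresh frozen peaks with no FFPE counterpart had a median score of 9.41 but spread widely, from 17.5 down to 3.70. The weakest had scores of 5.23 (rank 39827), 4.76 (rank 42299), 3.77 (rank 46170) and 3.70 (rank 46346). The 5 highest were chr12:105314443-105314883 (17.5), chr12:105526721-105527207 (14.4), chr12:105215003-105215395 (13.8), chr12:105174554-105174841 (9.83) and chr12:105199410-105199664 (9.63). Groups 13, 16 and 28 had fresh frozen peaks and none in the 5 long FiTAc-seq lists. In turn, 21 peaks of replicate 1 were found in replicate 2 and met no fresh frozen peak. The 5 of best mean rank were chr12:105138414-105139059, chr12:104871257-104871747, chr12:105642055-105643253, chr12:105627710-105628865 and chr12:105579221-105579753. The peak chr12:104871257-104871747 had rank 20419 and a score of 10.2 in replicate 1, and owes its place to the wide peak chr12:104867130-104871742 of replicate 2 (rank 33), which itself meets 3 fresh frozen peaks. All 5 lay in groups that had fresh frozen peaks (2, 12, 29, 30 and 31). They were also met at both conditions of 40 min. The groups without a fresh frozen peak, 4, 5 and 6, covered at most 373 bp in any list.

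Peaks stitched at gaps of up to 12.5 kb gave regions, which were ranked by the sum of score times length. A region was called large when it lay past the place on the scaled curve of ranked sums where the slope is 1. Fresh frozen liver had 20 stitched regions in the window and none was large, where 8.68% of its 19510 regions were. The best of the 20 ranked 2213 and was also the longest, at 36418 bp with 11 peaks. The right flank had 1 large fresh frozen region, of rank 681. Large regions were found in the window in 4 FiTAc-seq lists. At 50 °C/40 min 1 of 19 was large (whole list 5.12%), chr12:104853295-104874191 with 8 peaks and rank 488. Replicate 1 of 65 °C/5 min had 2 of 18 (whole list 4.20%), chr12:104853552-104874825 with 8 peaks and rank 388, and chr12:105615711-105648829 with 10 peaks and rank 421. Replicate 2 had 1 of 18 (whole list 4.48%), chr12:104847826-104874776 with 11 peaks and rank 269, which starts in the left flank. At 65 °C/40 min 1 of 19 was large (whole list 4.43%), chr12:105574110-105580319 with 4 peaks and rank 589.

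Most of these counts were near the shares of the whole lists. The right flank, with 4 regions in each, also had 1 large region at 50 °C/40 min (rank 526) and 1 at 65 °C/40 min (rank 513). The large regions of the window fell around group 2 in 3 lists, at groups 30 and 31 in replicate 1 of 65 °C/5 min, and at group 29 at 65 °C/40 min. Neither of the places on the right was large in another list. At 50 °C/5 min none of 15 was large (whole list 5.97%), and the best ranked 760, past the 672 called. Which lists had a large region depended on the ranking. Ranked by length alone, fresh frozen liver had 3 large regions in the window and the lists of 40 min none.

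Longer sonication at 50 °C went with more peaks and more covered bases in the window. The list of 40 min had 71 more peaks than that of 5 min (2.92 times) and 41113 bp more covered (4.21 times), where the SD of the 65 °C/5 min pair was 1.41 peaks and 5515 bp. Over the same change the whole list grew 1.70 times in peaks and 2.12 times in bases, and the flanks 1.73 and 2.72 times. With peaks merged within 500 bp the difference was 22 peaks. Heating at 65 °C in place of 50 °C, at 5 min, also went with more of both. The pair's mean was 48 peaks higher (2.30 times), beside 1.52 times in the peaks of the whole list and 1.44 times in the flanks. It was 51546 bp higher (5.03 times), beside 2.46 times in the bases of the whole list and 2.78 times in the flanks. After merging, the difference was 13 peaks. The share of fresh frozen window peaks met was higher by 48.3 percentage points in the first comparison and by 44.3 in the second, with an SD of 7.31 in the pair.

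At 65 °C the direction in covered bases was the opposite. The library of 40 min had 19 peaks more than the pair on average (1.22 times), where the whole list grew 1.10 times and the flanks 1.28 times. Its covered bases differed by -8050 bp (0.875 times), with both replicates of 5 min above it. Without replicate 1 the difference in bases was -4150 bp, within the SD of the pair, and with peaks merged within 500 bp the difference in peaks was 2. The bases of the whole list moved alike, at 0.821 times, and those of the flanks at 0.874 times. The share of fresh frozen window peaks met differed by 1.72 points, within the SD. At 40 min, 65 °C and 50 °C differed by -4 peaks, 2383 bp and -2.30 points. The SD comes from 2 libraries whose spread may be technical, and in the flanks it was 5.66 peaks, so it gives only a rough scale for these differences between single libraries. No p-value compares the conditions.

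H3K4me2, in a list of 11746 peaks, had 1 in the window. It was chr12:105710987-105711267 (281 bp), with a score of 4.99 and rank 7187, against 6 in each flank and a mean of 4 per tile. None of the 87 fresh frozen H3K27Ac peaks was met by an H3K4me2 peak (interval 0 to 4.23%), where 16.0% of all fresh frozen peaks were, and in the left and right flank 4 of 31 and 4 of 27 were met. The H3K4me2 peak lay 65210 bp from the nearest fresh frozen peak and between 61600 and 64500 bp from the nearest peak of the long FiTAc-seq lists. In the window, this FiT-seq list thus had no H3K4me2 peak at any of the H3K27Ac groups. Mark and method cannot be told apart here, since those groups came from fresh frozen liver and FiTAc-seq. The shares met were not matched by fresh frozen score. The FiT-seq H3K27Ac list, of 115 peaks, and the FiTAc-seq list of 80 °C/40 min, of 65 peaks, had none in the window or in either flank. Sequencing depth is unknown, so signal below the threshold of the peak caller is not seen in any of these lists.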

How the data were processed

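Peaks were called from H3K27Ac or H3K4me2 ChIP-seq of mouse liver, 1 list per library, from reads on mm9, for which the submitters' processing notes name BWA and MACS2. Their versions, the thresholds and the use of a control are not given in the sources used here, and the input DNA was not analysed here. The value that the authors deposited for each peak was read as a −log10 q-value, because the long lists end near 2 and its values fall in steps. The planned design had left the unit of this score open. Read depth is unknown, so shares carry Wilson 95% intervals for counting error only. Libraries were made with either of 2 kits, and which library had which is not stated.

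Only autosomal peaks (chromosomes 1 to 19) and those on X or Y entered, with 1-based starts. Covered bases are the union of a list's peaks, clipped at the window. The 2909 tiles are consecutive 900 kb stretches of each chromosome. Conditions were compared by their difference, set against the SD of the 65 °C/5 min pair. Members and lists were chosen with earlier results of these data known. The peaks named are the 10 highest of fresh frozen liver, the widest of each long list, up to 5 of best mean rank in both libraries of the pair without a fresh frozen peak, up to 5 of highest score in fresh frozen liver without a FiTAc-seq peak, the 5 highest of H3K4me2 and every large stitched region. An annotation of mm9 was not used here, so the planned check of liver cell markers and of gene starts was not run. Promoters are from RefSeq (GRCm38.p6), aligned with Biopython 1.88. Overlap and coverage were tested on simulated lists of 5000 peaks, where a made share of 60.0% was found as 60.0%. Stitching was tested on a few made intervals only, and the call of large regions was not tested. Alternatives covered score, merging, edges, flanks, list length, overlap, stitching and either library of the pair. The tools were scipy 1.17.1, pandas 2.3.3, numpy 2.4.6 and matplotlib 3.10.9 in Python 3.11.15.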

Additional observations from a re-analysis of the deposited data

Results flagged for a closer look

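Covered bases of the window moved in opposite directions with sonication at the 2 temperatures. From 5 to 40 min they were higher by 41113 bp at 50 °C, while at 65 °C the difference was -8049.5 bp, with both libraries of 5 min above the library of 40 min. The window did so along with its surroundings. The bases of the whole list were 2.12 times as many at 50 °C and 0.821 times at 65 °C, and those of the flanks 2.72 and 0.874 times. The difference between the 2 temperatures was not tested, since 3 of the 4 conditions have 1 library. Without replicate 1 of 65 °C/5 min the second difference was -4150 bp, within the SD of 5515 bp between the replicates.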

How the results depend on the processing

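Of 125 values under alternatives other than leaving out a library, 77 stayed within the limits set for their result and 48 moved. A reversal was defined only for differences between conditions that were larger than the SD of the pair, and none of these reversed. The ratio of window to flanks stayed above 1 in every H3K27Ac setting run, from 1.37 to 3.02. Merging peaks within 500 bp gave 51 peaks in fresh frozen liver, 47 at 50 °C/40 min, 38 at 65 °C/5 min and 40 at 65 °C/40 min, which covered 45442, 65790, 74052 and 68109 bp. The ratio to the flanks was then 1.40 at 50 °C/5 min, 2.49 at 50 °C/40 min and 2.84 at 65 °C/5 min. The 5000 highest merged peaks covered 24853 bp at 50 °C/40 min, 45359 bp at 65 °C/5 min and 29587 bp at 65 °C/40 min. After merging, the differences in peaks were 22 and 2 for 40 against 5 min at 50 °C and 65 °C, and 13 and -7 for 65 °C against 50 °C at 5 and 40 min. Those in bases were 50085 bp for 40 against 5 min at 50 °C and 58348 bp for 65 °C against 50 °C at 5 min. With a −log10 q-value of at least 5, 50 °C/5 min had 20 peaks, H3K4me2 had 0 and a ratio of 0, 65 °C/40 min covered 50776 bp, and 50 °C/40 min had a ratio of 2.47. The 30000 highest peaks covered 29940 bp in fresh frozen liver, 40227 at 50 °C/40 min, 56899 at 65 °C/5 min and 46812 at 65 °C/40 min, and H3K4me2 has too few peaks for this setting. With flanks of 450 kb the ratio was 2.74 in fresh frozen liver, 1.37 and 1.77 at 50 °C with 5 and 40 min, and 2.14 and 2.09 at 65 °C with 5 and 40 min. The midpoint rule gave a share of 14.9% at 50 °C/5 min. Ranked by length, 3 large regions were found in fresh frozen liver and 0 at 50 °C and at 65 °C/40 min. The cause of these moves was not tested.

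Chosen after seeing the data were the other lengths of the lists of highest peaks and merging in them. The 2000 highest held 2 window peaks at 50 °C/40 min, a mean of 6.50 at 65 °C/5 min and 4 at 65 °C/40 min. The 10000 highest held 9 in fresh frozen liver, 7 and 10 at 50 °C with 5 and 40 min, and 19.5 and 17 at 65 °C with 5 and 40 min, over 36355 and 23645 bp at 65 °C. Leaving out either library of the 65 °C/5 min pair gave 84 to 86 peaks, 60446 to 68245 bp, a ratio of 2.73 to 2.82, a share of 66.7% to 77% of fresh frozen peaks met, 51.2% to 57.1% of list peaks met, 1 to 2 large regions, and 9 to 11 peaks over 20818 to 29387 bp among the 5000 highest. The differences of 40 against 5 min at 65 °C then ranged from 18 to 20 peaks, -11949 to -4150 bp and -3.45 to 6.90 points, and those of 65 °C against 50 °C at 5 min from 47 to 49 peaks, 47646 to 55445 bp and 39.1 to 49.4 points. No paired analysis was possible because only 65 °C/5 min has numbered replicates.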
